A study of Mus musculus with 4 samples.

Results

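Small nucleolar RNAs and small Cajal body RNAs were examined in 4 primary mouse neuroblastomas. They were chosen by name from the array's platform annotation, as every gene whose symbol starts with Snord, Snora or Scarna and a number and that has a probe set naming no other gene. This gave 78 of the 22180 genes measured, of which 47 were C/D box RNAs (Snord), 26 H/ACA box RNAs (Snora) and 5 Cajal body RNAs (Scarna). Another 46 probe sets name such an RNA together with another gene and were not used. Every mouse was Stat6-/- and carried a mutated Alk gene together with TH-MYCN (strains C57BL/6 and 129Sv/J crossed), so there is 1 group of 4 and no control. The transgene places MYCN under the tyrosine hydroxylase promoter, which is active in catecholamine-making cells of the sympathetic lineage. Neither the age of the mice, nor the Alk allele, nor whether each tumour came from its own animal is stated in the labels. The tissue is labelled as a neck muscle, yet 0 of 8 skeletal muscle markers (among them Acta1, Ckm and Myog) lay above the background floor, while all 5 measured sympathetic markers did (Th, Dbh, Hand2, Gata3 and Isl1).

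Small nucleolar RNAs guide the chemical modification of other RNAs by base pairing. C/D box RNAs bring the methyltransferase fibrillarin to ribosomal RNA and direct 2′-O-methylation. H/ACA box RNAs bring dyskerin and direct pseudouridylation. Cajal body RNAs carry either or both kinds of box and guide the same changes on the spliceosomal RNAs, and a few members of the family are needed to cut the ribosomal RNA precursor. In mammals most of them lie in introns of host genes, many of which encode ribosomal proteins, translation factors or nucleolar proteins, or in introns of non-coding Snhg hosts. They are released from the spliced intron, and the mature RNA and the spliced host are then turned over separately. Ribosome production is a MYC-driven process, and the guides belong to its machinery.

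Values are log2 array signals, 1 array per tumour, as the authors normalized them. Whether a probe set of a small RNA reads the mature RNA, its precursor or both was not tested. A gene was called detected when its 4-tumour mean exceeded 6.17, the 95th percentile of 1390 olfactory and vomeronasal receptor genes that a tumour should not express. The relative deviation used below is a gene's value in a tumour minus its own 4-tumour mean, minus the median of that deviation over all detected genes of the array. These medians were 0.12, 0.04, -0.09 and -0.08 log2 units in tumours 1 to 4. By construction the deviations of a gene nearly cancel over the 4 tumours, so a high tumour makes the others lower. Tumour 4 stood apart in the genes of the sex chromosomes. Xist was at 10.13 against 3.89 to 3.95 in the other tumours, and the Y gene Eif2s3y at 3.90 against 7.47 to 7.89. These values read as female in tumour 4 and male in tumours 1 to 3. Sex therefore cannot be told apart from tumour 4 in the comparisons below, and 3 members lie on chromosome X. With 1 group there is no contrast to test, and differences between tumours are given against the spread over tumours and over all detected genes, with no p-value.

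The mature sequences of the members are not printed here, because the sequence tables used hold no entry for them. Printed instead are promoters of host genes, since members on the strand of their host are taken to be made from its transcript. Whether these promoters bear on the values below was not tested. Of the 66 genes whose span holds a member, 50 had an entry in the RefSeq promoter table (GRCm38.p6). The E-box letters CACGTG, which MYC proteins bind and which read the same on both strands, were searched from 250 bases before to 10 bases after each annotated start. They occurred in 8 of these 50 host genes (16%), against 7.22% of the 27025 genes in the table. The 8 were Eef2, Eif4g1, Gm36220, Ipo7, Rpl13a, Rpl23, Snhg9 and Snx5. A match describes the letters only and is not a binding site. The 27025 genes were not limited to detected ones, whereas most measured host genes were detected, so the shares are not like for like. The search was not part of the plan, and no host or member value was set against its matches. Shown 5′ to 3′ are the hosts of the 5 H/ACA box RNAs with the widest range (Snora73b, Snora75, Snora44, Snora21 and Snora23), with CACGTG in capitals where it occurs, which is in Rpl23 (3 bases before the start) and Ipo7 (137 bases before). The windows are chr4:132308428-132308687 on the plus strand for Snhg12, chr4:132353677-132353936 on the minus strand for Snhg3, chr1:86359446-86359705 on the minus strand for Ncl, chr11:97782430-97782689 on the minus strand for Rpl23 and chr7:110018065-110018324 on the plus strand for Ipo7. Snhg12 and Snhg3 are thus neighbours on chromosome 4.
Snhg12: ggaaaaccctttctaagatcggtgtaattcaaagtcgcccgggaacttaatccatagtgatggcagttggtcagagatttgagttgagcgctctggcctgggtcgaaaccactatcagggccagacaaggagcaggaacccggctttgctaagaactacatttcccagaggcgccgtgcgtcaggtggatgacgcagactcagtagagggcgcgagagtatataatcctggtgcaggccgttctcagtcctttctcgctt
Snhg3: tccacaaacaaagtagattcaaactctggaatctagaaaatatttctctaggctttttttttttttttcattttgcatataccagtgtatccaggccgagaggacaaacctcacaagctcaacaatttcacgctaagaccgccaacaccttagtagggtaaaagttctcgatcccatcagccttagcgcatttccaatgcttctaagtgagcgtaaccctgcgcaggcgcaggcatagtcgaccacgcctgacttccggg
Ncl: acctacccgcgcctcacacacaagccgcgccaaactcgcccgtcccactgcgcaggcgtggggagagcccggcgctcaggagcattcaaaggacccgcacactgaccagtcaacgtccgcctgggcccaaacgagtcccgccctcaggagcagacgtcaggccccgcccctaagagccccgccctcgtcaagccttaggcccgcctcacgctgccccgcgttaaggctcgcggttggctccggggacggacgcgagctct
Rpl23: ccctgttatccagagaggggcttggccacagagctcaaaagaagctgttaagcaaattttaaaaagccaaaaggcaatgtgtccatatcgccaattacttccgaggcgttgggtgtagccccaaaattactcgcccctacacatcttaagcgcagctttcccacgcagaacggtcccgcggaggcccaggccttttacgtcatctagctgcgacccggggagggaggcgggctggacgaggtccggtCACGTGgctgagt
Ipo7: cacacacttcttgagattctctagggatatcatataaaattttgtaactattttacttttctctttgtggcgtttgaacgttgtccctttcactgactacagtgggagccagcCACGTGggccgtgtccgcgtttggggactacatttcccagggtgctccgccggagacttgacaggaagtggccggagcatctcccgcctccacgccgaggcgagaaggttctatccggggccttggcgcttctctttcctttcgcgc

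Most members were detected. Of the 78, 61 lay above the floor (78.2%), against 40.5% of all 22180 genes. The count was 33 of 47 for C/D box RNAs, 23 of 26 for H/ACA box RNAs and 5 of 5 for Cajal body RNAs. The 17 members under the floor had means between 3.54 and 5.86 and are undetermined, not shown to be absent. The nearest to the floor on either side were Snord88a (mean 6.20) and Snora2b (5.86). Both Snora19 probe sets hold identical values and were counted once. For Snora33 the brighter probe set was kept (11.91, the other at 5.77), and for Scarna17 likewise (9.50 and 8.60). Of the imprinted brain clusters (Snord64, Snord107, and Snord113 to Snord116) 0 members had a probe set of their own.

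Most detected RNAs stood high in tumour 3, and their medians were below 0 in tumours 2 and 4. In tumour 3, 58 of 61 had a relative deviation above 0, where all detected genes split at 50%. The median relative deviation there was 0.37 ± 0.23 log2 units (SD over 61 RNAs), and it was -0.01 ± 0.17 in tumour 1, -0.14 ± 0.28 in tumour 2 and -0.22 ± 0.30 in tumour 4. On the deposited values, 38 of the 61 were highest in tumour 3, against 11% of all detected genes. After the array medians were subtracted the count was 47 of 61, against 24.3%. Only Snord16a (-0.08), Snord89 (-0.00) and Snora44 (-0.13) lay below 0 in tumour 3. The medians in tumours 2, 3 and 4 kept their sign with each tumour left out in turn and under each of the other settings tried, but not their size. Without tumour 3 the median of all detected members was -0.04 in tumour 2 and -0.10 in tumour 4, that of C/D box RNAs -0.01 and -0.11, and that of H/ACA box RNAs -0.15 and -0.00.

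**Figure D1:**
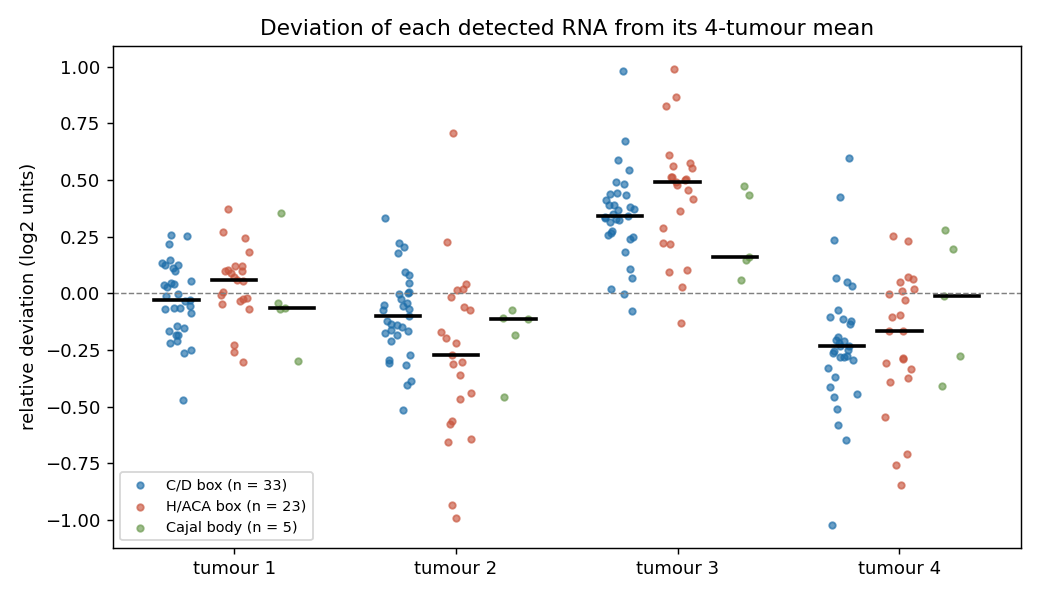
Relative deviation (log2 units, vertical axis) of each detected RNA in each of the 4 tumours, with C/D box RNAs in blue (n = 33), H/ACA box RNAs in red (n = 23) and Cajal body RNAs in green (n = 5). Points are RNAs and bars are medians over RNAs. The medians of both box classes are above 0 in tumour 3 (0.34 and 0.49) and below 0 in tumours 2 and 4.

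The box classes shared the high tumour 3 and medians below 0 in tumours 2 and 4. With all 4 tumours kept, the classes differed in size and in which tumour was lowest. C/D box RNAs had median relative deviations of -0.03 ± 0.16, -0.10 ± 0.19, 0.34 ± 0.20 and -0.23 ± 0.30 in tumours 1 to 4 (SD over 33 RNAs). H/ACA box RNAs had 0.06 ± 0.16, -0.27 ± 0.38, 0.49 ± 0.27 and -0.17 ± 0.30 (SD over 23 RNAs). The C/D minus H/ACA difference of medians was -0.09 in tumour 1, 0.17 in tumour 2, -0.15 in tumour 3 and -0.07 in tumour 4. This difference rests on tumour 2. Without that tumour it nearly vanished, at 0.02 in tumour 1, -0.02 in tumour 3 and 0.01 in tumour 4. On the deposited values, 25 of 33 C/D box RNAs were lowest in tumour 4 and 5 in tumour 2. Of the 23 H/ACA box RNAs, 10 were lowest in tumour 4 and 11 in tumour 2. Among all detected genes 38.6% were lowest in tumour 4 and 17.8% in tumour 2. After the array medians were subtracted, 18 C/D box and 8 H/ACA box RNAs were lowest in tumour 4 (29% of all detected genes), and 11 and 13 in tumour 2 (25.2%). The step from tumour 2 to tumour 3 was 0.43 ± 0.32 for C/D box and 0.71 ± 0.61 for H/ACA box RNAs (median ± SD over RNAs, relative), and it reached 1 log2 unit in 1 of 33 and 6 of 23, against 1% of all detected genes. The step from tumour 3 to tumour 4 in the same order of classes was -0.61 ± 0.42 and -0.67 ± 0.40, and it reached 1 log2 unit downward in 2 and 4 RNAs, against 0.579% of all detected genes.

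H/ACA box RNAs also spread more widely between tumours. A range of at least 1 log2 unit (2-fold) over the 4 tumours was reached by 8 of 23 H/ACA box RNAs, 2 of 33 C/D box RNAs and 0 of 5 Cajal body RNAs, against 4.26% of the 8986 detected genes. A range of at least 1.5-fold was reached by 19 of 23 H/ACA box and 23 of 33 C/D box RNAs, against 24.1%. The median range was 0.86 for H/ACA box, 0.66 for C/D box and 0.71 for Cajal body RNAs, and 0.41 for all detected genes. With the detected genes in 4 equal bins by level, from dim to bright, 0 of 3, 2 of 6, 1 of 4 and 5 of 10 H/ACA box RNAs reached 1 log2 unit, and 1 of 3, 1 of 6, 0 of 6 and 0 of 18 C/D box RNAs. In the dimmest bin the median range was wider for C/D box (0.91) than for H/ACA box RNAs (0.69), and in the brightest it was 0.62 and 1.1. The H/ACA count was 4 of 23 without tumour 3 or without tumour 4 and 5 without tumour 2, and the C/D count was 0 without tumour 4. RNAs of 1 host may share a transcript, so they cannot be counted as independent, and no test of the class difference was made.

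**Figure D2:**
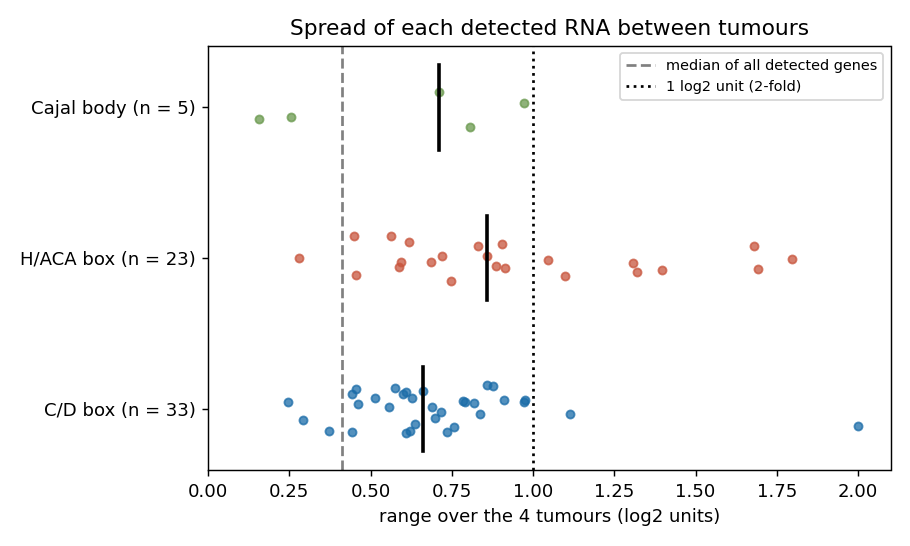
Range over the 4 tumours (log2 units, horizontal axis) of each detected RNA by class. Points are RNAs, black bars are class medians, the dashed line is the median of all detected genes (0.41) and the dotted line is 1 log2 unit. The 8 H/ACA box RNAs right of the dotted line outnumber the 2 C/D box RNAs.

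Among H/ACA box RNAs the widest was Snora73b, a copy of the U17 RNA that takes part in cutting the precursor of the small-subunit ribosomal RNA. It measured 7.36, 6.42, 8.21 and 7.23 in tumours 1 to 4. Tumour 3 was highest and tumour 2 lowest, 1.80 log2 units apart. Its near-identical copy Snora73a measured 7.52, 6.97, 7.80 and 7.28, in the same order of highest and lowest, and probe sets of the copies may share signal. Snora75, which lies within the nucleolin gene Ncl, measured 11.57, 10.39, 12.09 and 11.32. Snora21, within the ribosomal protein gene Rpl23, measured 10.62, 9.76, 11.16 and 9.96. Both were again highest in tumour 3 and lowest in tumour 2.

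Of the other H/ACA box RNAs with a range of at least 1 log2 unit, most were lowest in tumour 4. Snora23, within the importin gene Ipo7, measured 9.22, 9.13, 9.57 and 8.25 in tumours 1 to 4. Snora15, within the chaperonin gene Cct6a, measured 9.30, 9.06, 9.46 and 8.16. Snora68 measured 7.16, 6.92, 7.36 and 6.31. In these 3 tumour 4 lay apart below the other tumours. Snora62, within the ribosomal protein gene Rpsa, measured 8.15, 7.05, 8.13 and 7.28. Tumours 1 and 3 were high and tumours 2 and 4 low, with tumour 2 the lowest. Snora44 was not high in tumour 3, with 9.55, 9.91, 8.94 and 8.23, highest in tumour 2 and lowest in tumour 4.

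The H/ACA box RNAs with the next widest ranges, Snora74a (0.91) within Snhg4 and Snora41 (0.90) within the elongation factor gene Eef1b2, were highest in tumour 3 and lowest in tumour 2. At the narrow end Snora47 measured 6.87, 6.97, 7.02 and 7.15 and Snora61 6.26, 6.71, 6.38 and 6.40. Snora7a, within Rpl32, was nearly as even (range 0.46). Snora30, within the chromatin remodeller gene Srcap, stood between 7.79 and 7.87 in tumours 1, 3 and 4 and at 7.30 in tumour 2. Of the 3 H/ACA box RNAs under the floor, Snora2b ran from 5.13 in tumour 2 to 6.61 in tumour 3, above the floor in tumours 1 and 3 alone.

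**Figure D3:**
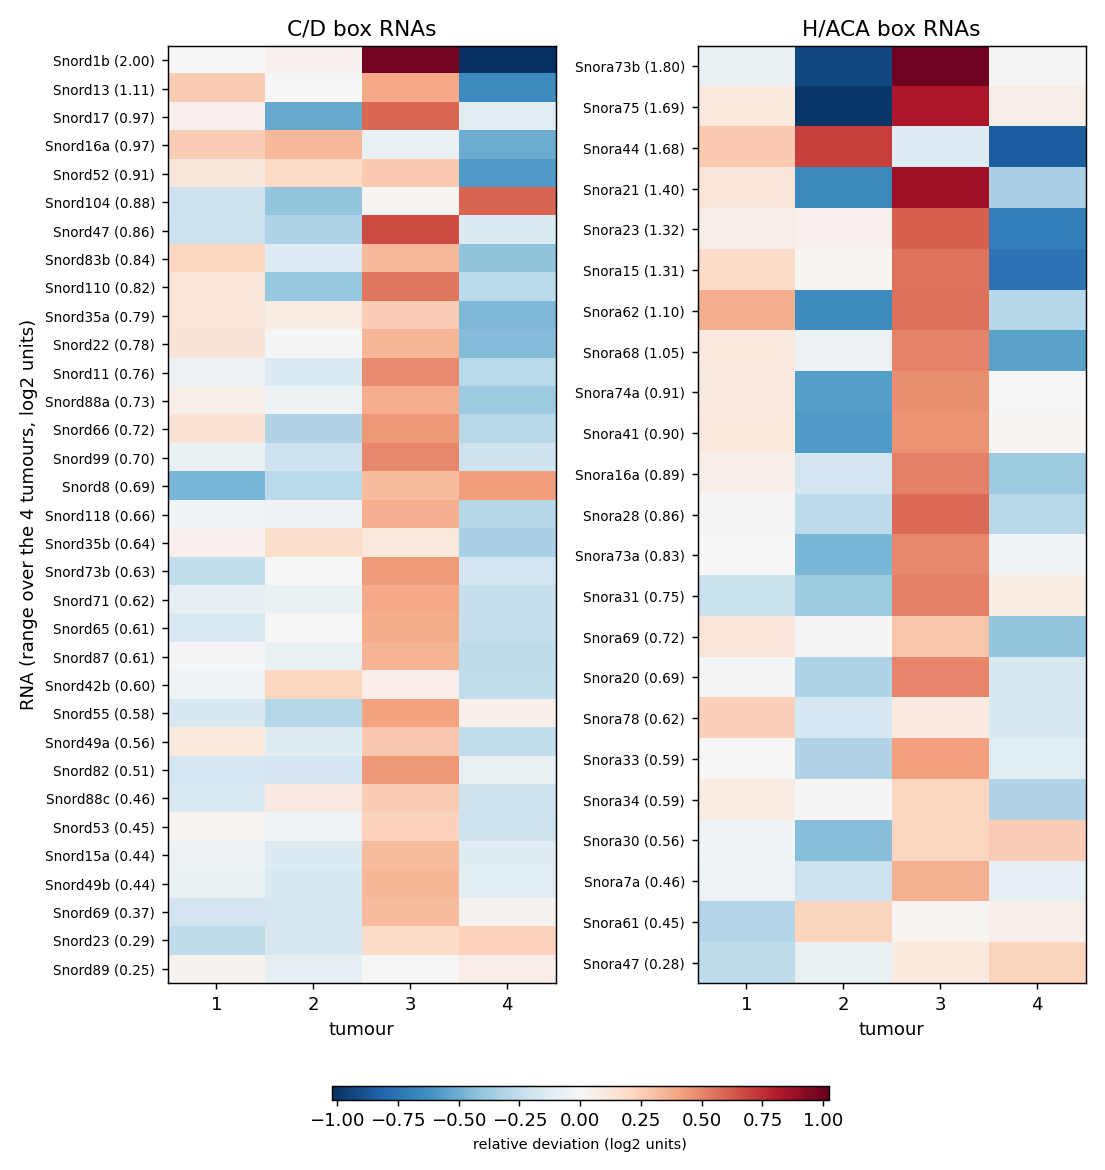
Relative deviation (log2 units, colour) of the 33 C/D box RNAs (left) and 23 H/ACA box RNAs (right) in tumours 1 to 4, sorted by range, which stands in brackets. Tumour 3 is the warm column in both classes, and the cool cells of the widest H/ACA box RNAs lie in tumour 2 as well as in tumour 4, while those of the widest C/D box RNAs lie mostly in tumour 4.

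Among C/D box RNAs the widest was Snord1b, within Snhg16, at 6.75, 6.72, 7.52 and 5.52 in tumours 1 to 4. Tumour 3 was highest and tumour 4 lowest, 2.0 log2 units apart, and in tumour 4 it was under the floor. Snord13, the U13 RNA that guides acetylation of the small-subunit ribosomal RNA, measured 7.36, 7.02, 7.28 and 6.24, with tumour 4 below the other tumours. Snord52, within 1110038B12Rik, measured 6.96, 6.97, 6.90 and 6.06, and Snord35a, within Rpl13a, 9.45, 9.32, 9.36 and 8.65. In both, tumours 1 to 3 lay close together and tumour 4 below them. Snord83b, within Rpl3, was also lowest in tumour 4.

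Snord47, within the Gas5 locus, measured 9.21, 9.03, 9.89 and 9.08, with tumour 3 alone high. Snord17, within the sorting nexin gene Snx5, measured 8.58, 7.95, 8.92 and 8.22, and Snord110, within Nop56, 7.06, 6.46, 7.26 and 6.45. Snord11, within Nop58, ran from 10.09 in tumour 4 to 10.85 in tumour 3. Nop56 and Nop58 encode core proteins of the C/D box particle, so these guides lie in genes for their own partners.

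A few went against the class. Snord16a, within Rpl4, measured 8.18, 8.18, 7.64 and 7.21, so it was lower in tumours 3 and 4 than in tumours 1 and 2. Snord104 measured 10.18, 9.90, 10.20 and 10.78, highest in tumour 4. The narrowest were Snord89 (range 0.25), Snord23 (0.29), Snord69 (0.37) and Snord49b (0.44). Snord89 measured 10.69, 10.48, 10.45 and 10.52 and was the lone detected C/D box RNA with its lowest deposited value in tumour 3.

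The RNAs that take part in processing of the ribosomal RNA precursor were highest in tumour 3, lowest in tumour 4, or both, as most members were. Of all 61 detected members, 38 were highest in tumour 3 and 38 were lowest in tumour 4 on the deposited values. Snord118, the U8 RNA needed for the large-subunit RNAs, measured 8.41, 8.31, 8.60 and 7.94 in tumours 1 to 4, highest in tumour 3 and lowest in tumour 4. Snord22, the U22 RNA needed for the small-subunit RNA, measured 7.57, 7.33, 7.56 and 6.78, lowest in tumour 4. The U3 RNA, the most abundant C/D box RNA and the one that starts the first cuts, is named Rnu3a on this array and was no member by its symbol. It was looked at after the members and measured 9.25, 8.54, 9.66 and 9.06, highest in tumour 3 and lowest in tumour 2, as Snora73a and Snora73b were. Of the guides of the U6 spliceosomal RNA, Snord8 was measured, at 8.88, 9.0, 9.45 and 9.57, so tumours 3 and 4 were both above tumours 1 and 2.

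The 5 Cajal body RNAs, all detected, were all above 0 in tumour 3 and below 0 in tumour 2 in relative deviation. Scarna10, the U85 RNA that guides changes on the U5 spliceosomal RNA, measured 9.38, 8.83, 8.97 and 8.41 in tumours 1 to 4. Scarna17 measured 9.33, 9.09, 9.89 and 9.70, and its dimmer probe set 8.57, 8.19, 9.05 and 8.58, so both were highest in tumour 3 and lowest in tumour 2. Scarna8, within Haus6, ran from 6.00 in tumour 4 to 6.71 in tumour 3. Scarna2 (8.95 ± 0.11) and Scarna6 (9.38 ± 0.07, SD, n = 4) were nearly constant, and the latter had the narrowest range of all 61 detected members, 0.16. The median relative deviation of the 5 was 0.16 ± 0.19 in tumour 3, and elsewhere it ran from -0.12 to -0.01.

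The RNAs stood further from 0 in tumour 3 than their host genes, and below them in tumour 2. Of the detected RNAs, 52 lay within 1 gene of the RefSeq table, 5 within several and 4 within none (Snord13, Snord89, Snord118 and Scarna2). The table gives no strand, so a gene on the opposite strand may be among them. For 43 RNAs the single host was itself detected, which gave 35 hosts. Over these 43, the RNA exceeded its host in tumour 3 in 39, by a median of 0.27 log2 units, and in tumour 2 it exceeded its host in 9, with a median of -0.26. In tumours 1 and 4 the medians were 0.01 and -0.00. The RNAs were not set against genes other than their hosts, so these counts are not shown to be particular to hosts. RNA and host lay on the same side of 0 in 34 of 43 pairs in tumour 3, in 32 in tumour 4, in 18 in tumour 2 and in 20 in tumour 1. Since 58 of 61 RNAs were above 0 in tumour 3 and 46 below 0 in tumour 4, the counts there mostly reflect the side of the hosts. They do not show that an RNA follows its own host. Their highest tumour was the same in 2 of 43 pairs on the deposited values and in 14 on the relative scale. Of all 44 detected host genes, 34 were above 0 in tumour 3 and 13 in tumour 4, with medians of 0.05 and -0.09. Most hosts thus lay on the side of the RNAs there, at a smaller size. In tumour 3 this depends on the floor. For the single hosts of detected RNAs the median was 0.07 there. With the floor lowered to the median receptor gene it was 0.00, and without a floor -0.01. The median range was 0.72 for the RNAs and 0.41 for the hosts, and the RNA was the wider in 17 of 20 H/ACA pairs and 10 of 20 C/D pairs.

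Detected RNAs within the same host gene differed from each other in some cases. Snhg12, a non-coding host, measured 6.86, 6.65, 5.86 and 5.74 in tumours 1 to 4, lower in tumours 3 and 4, where it was under the floor. Its Snora16a (8.76, 8.43, 9.01, 8.12) and Snord99 (9.93, 9.70, 10.28, 9.58) were highest in tumour 3, and they stayed within 0.16 log2 units of each other in relative deviation. Snora44 and Snora61, from the same host, were highest in tumour 2. The largest gap between relative deviations within this host was 0.92, between Snora44 and Snord99. Over the 12 pairs of detected RNAs that share a host, 6 had the same highest tumour, and the largest gap in any tumour had a median of 0.47. Pairs that do not share a host were not compared, so it is not shown whether these pairs were more or less alike.

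Ncl, which encodes the nucleolar protein nucleolin, measured 10.57, 10.57, 10.41 and 10.24 in tumours 1 to 4. Its C/D box RNA Snord82 measured 10.96, 10.88, 11.38 and 10.87, and its H/ACA box RNA Snora75 spanned 1.69 log2 units where Snord82 spanned 0.51. Both were highest in tumour 3 and the host was not. Snhg3 measured 7.26, 7.32, 7.12 and 6.69, lowest in tumour 4, while its Snora73a and Snora73b were lowest in tumour 2. The 3 C/D box RNAs of 2410006H16Rik, Snord49a, Snord49b and Snord65, stayed within 0.25 log2 units of each other in each tumour, and near-identical copies such as Snord49a and Snord49b may share signal. The host, at 9.68, 9.76, 9.64 and 8.85, was lower than they were in tumour 4 on the relative scale (-0.55, against -0.25 in Snord49a, -0.10 in Snord49b and -0.23 in Snord65).

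**Figure D4:**
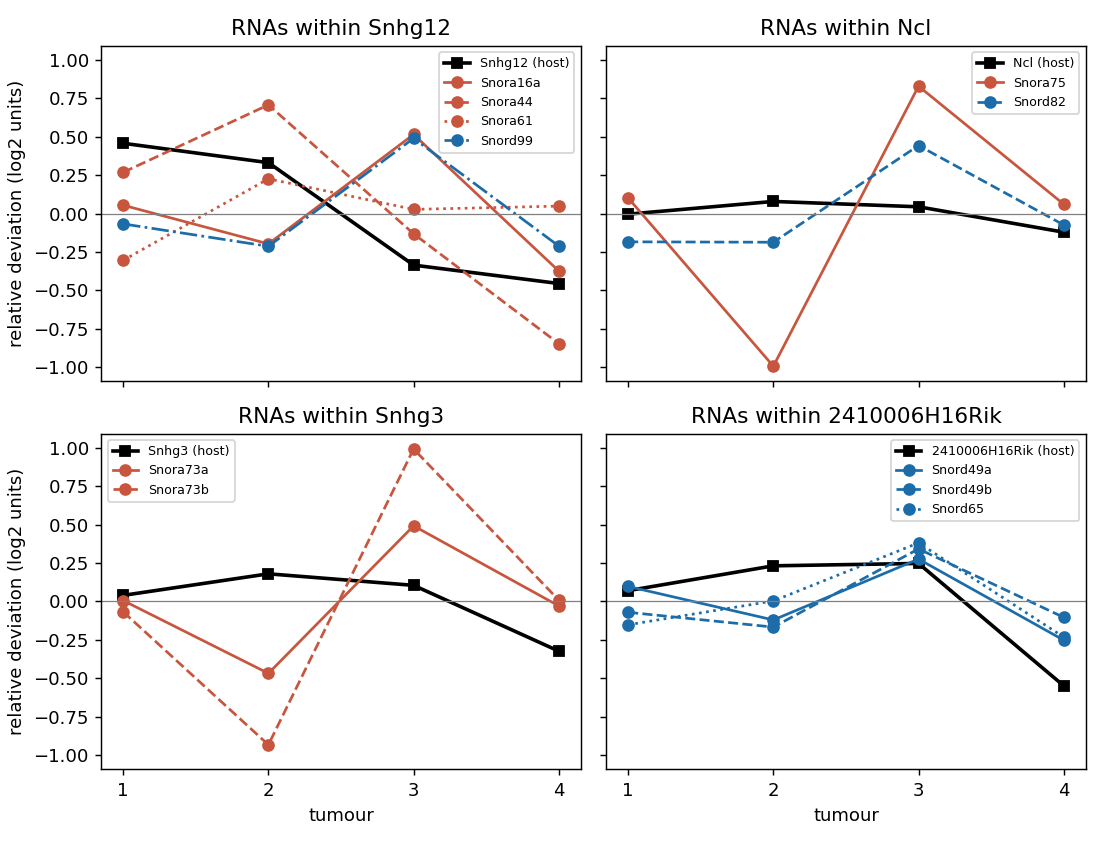
Relative deviation (log2 units) in tumours 1 to 4 of 4 host genes (black squares) and of the detected H/ACA box (red) and C/D box (blue) RNAs within them. Lines join the values of 1 gene and imply no order of tumours. Snora75 spans 1.69 log2 units and its host Ncl 0.33.

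Of the 66 genes that hold a member, 50 were measured, 44 were detected and 3 had a range of at least 1 log2 unit, against 4.26% of all detected genes: Rps3a1 (1.81), Rpl3 (1.66) and Snhg12 (1.12). Their median range was 0.39, and that of all detected genes 0.41. Rpl3 measured 9.44, 9.52, 11.10 and 9.44, with tumour 3 alone high, while Snord83b within it measured 8.20, 7.77, 8.10 and 7.36. Rps3a1 measured 10.32, 9.25, 10.16 and 11.06, and Snord73b within it 9.74, 9.92, 10.22 and 9.59. At the other end Rpl4 had a range of 0.05 where its Snord16a had 0.97, and Rpl39 one of 0.07 where its Snora69 had 0.72. Probe sets of ribosomal protein genes may also read their processed copies.

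The proteins of the particles went the other way in tumour 2. Of 24 genes for core proteins and assembly factors, 23 were measured and 20 detected, and 0 reached a range of 1 log2 unit, against 4.26% of all detected genes, while their median range was 0.54 against 0.41. Their median relative deviation was 0.01 ± 0.11, 0.19 ± 0.14, -0.04 ± 0.17 and -0.12 ± 0.12 in tumours 1 to 4 (SD over 20 genes), with 17 of 20 above 0 in tumour 2 and 6 of 20 in tumour 3. The widest was Dkc1, dyskerin, the pseudouridine synthase of the H/ACA particle, at 8.55, 8.82, 8.06 and 8.13, highest in tumour 2 and lowest in tumour 3. Znhit6, an assembly factor of C/D box particles, was high in tumour 3 alone (7.25, 7.32, 7.78, 7.04). Nufip1, another assembly factor, ran from 7.70 in tumour 3 to 8.43 in tumour 2. Gar1 (range 0.21), of the H/ACA core, and Snu13 (0.24), of the C/D core, were the narrowest.

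The medians of other small non-coding RNAs were also above 0 in tumour 3, but not below 0 in tumour 4. Of 483 microRNA genes, 83 were detected, with median relative deviations of -0.27, -0.20, 0.20 and 0.32 in tumours 1 to 4 (SD over genes 0.26, 0.23, 0.23 and 0.27). The receptor genes that set the floor were also lower in tumours 1 and 2, with medians of 3.85, 3.95, 4.10 and 4.10 log2 units, and so were the array medians (5.15, 5.19, 5.25 and 5.29). The members' medians lay on the same side of 0 as those of the microRNA genes in tumours 2 (-0.14) and 3 (0.37). In tumour 4 (-0.22) they lay on the other side. The part of the drift of the arrays in the members' values was not tested. Of 10 further small RNA genes 9 were detected, with median relative deviations of -0.12, -0.19, 0.31 and 0.02 in tumours 1 to 4. Of these 9, 1 was above 0 in tumour 2, 8 in tumour 3 and 5 in tumour 4, so they were divided in tumour 4. Rn7sk was the most constant, between 13.12 and 13.13, near the top of the scale, and Terc, the telomerase RNA, which carries an H/ACA domain, measured 11.18, 11.02, 6.71 and 8.32 and was lowest in tumour 3.

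**Figure D5:**
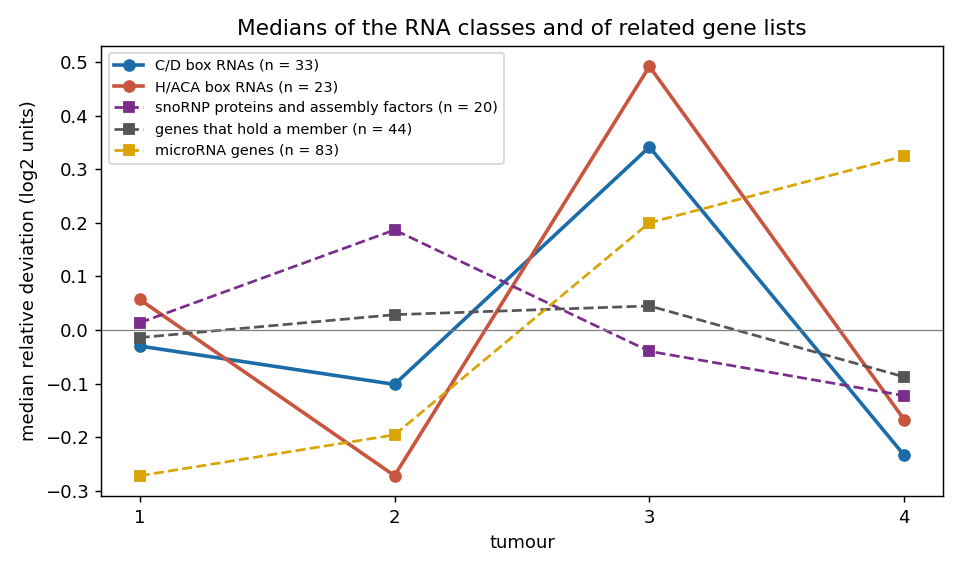
Median relative deviation (log2 units) in tumours 1 to 4 of C/D box RNAs, H/ACA box RNAs, snoRNP protein and assembly genes, the genes that hold a member, and microRNA genes, with the number of detected genes in brackets. Lines imply no order of tumours. In tumour 2 the protein genes are above 0 (0.19) and H/ACA box RNAs below (-0.27).

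Cell markers differed between the tumours too. Macrophage markers were lower in tumour 3, with 0 of 5 detected markers above 0 and a median relative deviation of -0.49 ± 0.11, and their summed signal ran from 10.31 log2 units in tumour 3 to 11.21 in tumour 2. Fibroblast markers were higher in tumour 1 (0.66 ± 0.38, 4 of 4 detected above 0) and lower in tumours 2 (-0.37 ± 0.13) and 4 (-0.48 ± 0.26), with summed signals from 9.08 in tumour 4 to 10.60 in tumour 1. Sympathetic markers were lowest in tumour 2 (-0.23 ± 0.13) and highest in tumour 4 (0.26 ± 0.15). Of the measured Schwann cell, T cell and B cell markers, 0 of 7 were detected. The part of the cell mixture in the members' values was not tested, and in bulk tissue fewer cells of a type and less RNA per cell cannot be told apart.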

How the data were processed

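RNA of 4 tumours was hybridised to 1 single-channel Affymetrix gene array each. The deposited values are log2 signals per probe set, made by the authors with RMA in Partek per the submitters' processing notes. The log base was read from the range of the values. 41345 probe sets were read and 0 columns were left unused. The platform annotation names 1 gene for 23521 probe sets and several for 1814, which were left out. The probe set with the highest mean stood for a gene. Symbols were matched to RefSeq (GRCm38.p6). Host genes were assigned by span alone, not by strand as planned, and the planned search for a C box in the members was not run, since the tables used hold no strand for them and no sequence. Named members were the 12 widest C/D and 10 widest H/ACA box RNAs, the 4 narrowest of each, the Cajal body RNAs, members of set functional groups, of hosts with at least 3 detected members, and those with 1 outlying tumour; of each other list, up to 3 widest and 2 narrowest genes. Snord82, Snord73b, Snora69, Snora2b, Snord88a, Snora19 and Snora33, the hosts Ncl and Snhg3, and Rnu3a were given values beside these after their values were seen. Members and lists were chosen with earlier results of these data known. The scripts were tested on simulated data (Python 3.11.15, numpy 2.4.6, pandas 2.3.3). The number of arrays limits the precision.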

Additional observations from a re-analysis of the deposited data

Results flagged for a closer look

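In 3 of the 61 detected members and in 4 of the 44 detected host genes, 1 tumour lay far from the other tumours, with a gap to its nearest neighbour that, as a share of the whole range, passed the outlier limit (Dixon's 95% critical value for 4 samples). Chance flags about 1 in 20 groups, so the count in the members was near what chance gives. The share over all detected genes was not counted, and neither count is read as a trait of the members or hosts. Tumour 4 was low for Snord52 (a gap of 0.926 of the range) and for Snord35a (0.838). Tumour 2 was low for Snora30 (0.861). Among host genes, tumour 3 was high for Rpl3 (0.949), tumour 4 was low for Rpl23a (0.926) and 2410006H16Rik (0.875), and tumour 2 was high for Eef2 (0.920).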

How the results depend on the processing

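Over 38 results and 16 alternatives, 380 of 399 alternative values stayed near the reported one and 19 moved. A deviation was called near within 1 SD over the 4 tumours, and a count within 1.5-fold. The rule is loose: the H/ACA box median in tumour 4 went from -0.17 to -0.00 without tumour 3 and was called near. Some values could not move, since updating symbols changed no member's and the array medians cancel in the C/D minus H/ACA difference. The counts of RNAs with a wide range depended on the threshold. At 1.5 log2 units they were 4 in all, 1 C/D box and 3 H/ACA box, and at 1.5-fold they were 45, 23 and 19. A stricter floor (99th percentile) gave a C/D box count of 0. It was 4 when the floor was lowered to the median receptor gene, when it was dropped, and after a further quantile normalization. With 1 tumour left out it was 0 to 2, the H/ACA box count 4 to 8 and the count of all members 4 to 10. The C/D minus H/ACA difference in tumour 4 went from -0.07 to 0.074 under the stricter floor. The host gene median in tumour 1, reported as -0.01, was 0.0877 under the lowered floor and 0.102 when it was dropped. In tumour 3 the host gene median went from 0.07 to 0.00 and -0.01 under the same settings. In 27 values near 0 the sign changed. Members under the floor have no reliable order. No paired analysis was possible because the tumours form 1 group. The cause of these shifts was not tested.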
